A study of Caenorhabditis elegans with 12 samples.

Results

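Caenorhabditis elegans larvae fed dihomo-gamma-linolenic acid (DGLA) were set against larvae fed linoleic acid (LNA), the fatty acids that stand at the end and at the start of a short stretch of the worm's polyunsaturated fatty acid pathway. The comparison set the 3 arrays titled DGLA against the 3 titled LNA, over all 29317 probe sets of an Affymetrix whole-transcript worm array. These are 6 of the series' 12 arrays, and all 12 gave the test its estimate of the spread. All 4 groups were wild-type N2 worms, age-synchronised by hypochlorite treatment, fed Escherichia coli OP50 on nematode growth medium and collected as L4 larvae (the last larval stage) for total RNA. The DGLA group had 1000 µM DGLA in the medium, the GLA group 1000 µM gamma-linolenic acid, the LNA group 1000 µM linoleic acid, and the control group no added acid, and every plate held the same ethanol vehicle (1% v/v). Each group had 3 biological replicates with 1 array each. The acids were given from the first larval stage onwards, so each array describes worms that had grown up on the acid. In RNA from whole worms, fewer cells of a type and less RNA per cell cannot be told apart.

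Worms make these acids themselves. The desaturase FAT-3 adds a double bond to LNA to give GLA, an elongase (ELO-1 or ELO-2) lengthens GLA to DGLA, and the desaturase FAT-4 turns DGLA into arachidonic acid. DGLA therefore differs from LNA by an added double bond and a longer chain, while GLA has the double bond and not the longer chain. In worms, dietary DGLA is known for causing loss of germ cells and sterility, and polyunsaturated fatty acids are also the starting material of signalling lipids made by cytochrome P450 enzymes. Intestinal cells of this species hold most of the fat and make many of the detoxification and defence proteins described here.

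Values are log2 signals, so a difference of 1 is a doubling of signal, and a gene stands for its probe set with a single gene symbol and the highest mean over the 12 arrays (25478 genes). The array medians lay between 4.47 and 4.56, and the correlations between arrays over all probe sets lay between 0.987 and 0.994. Arrays LNA 2 and LNA 3 stood apart from the rest. On the first principal component, which held 23.1% of the variance, they were at 41.95 and 35.68, whereas LNA 1 and the other arrays, 10 in all, lay between -18.02 and 3.64. Results are therefore also given against LNA 1 alone, which leaves a single LNA array whose spread is assumed to be that of the other groups. The 13 measured body wall muscle markers had a summed log2 level of 15.16 to 15.23 on the DGLA arrays, against 15.25 on LNA 1, 14.84 on LNA 2 and 14.97 on LNA 3. Gene by gene they were mixed: 7 of the 13 differences of DGLA minus LNA were above 0, with a median of 0.08 and a range of -0.32 to 1.56. The 9 sperm markers summed to 11.23 to 11.38 in DGLA and to 11.44 to 11.68 in LNA, so the groups did not overlap, although none of the 9 passed the test (limma, with 4 under an unadjusted p of 0.05). The 11 intestine markers, all above the array medians, summed to 13.44 to 13.57 in DGLA and 13.42 to 13.57 in LNA. Their single differences were mixed, with 6 of the 11 above 0, a median of 0.01 and a range of -0.26 to 1.65. In limma 5 of the 11 were under an unadjusted p of 0.05, and 1, pgp-1, was called higher. The part of these shifts in the results below was not tested.

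The question for the comparison was which transcripts differ between worms at the 2 ends of this stretch. At an adjusted p under 0.05 (limma's moderated test on all 12 arrays, two-sided, Benjamini-Hochberg over all probe sets), 93 probe sets differed, 35 higher and 58 lower in DGLA, which is 0.317% of those tested. They held 84 genes, or 0.33% of the genes measured, with 31 higher (0.122%) and 53 lower (0.208%) in DGLA. The other called probe sets carried several symbols (3) or none (6). A further measure of the background is that 2857 genes had an unadjusted p under 0.05. In all 84 called genes the 3 DGLA arrays lay on one side of the 3 LNA arrays, which was also so for 12.7% of all genes (4.43% higher and 8.23% lower in DGLA). Over all genes the median difference was -0.03, with a median standard error (SE) of 0.13. The genes that rose changed by larger steps: 18 of the 31 were at least 2-fold higher in DGLA, and 17 of the 53 at least 2-fold lower. The replicates are described as biological, but the labels do not say whether they were grown on separate days, so the p-values measure the spread between these cultures.

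**Figure D1:**
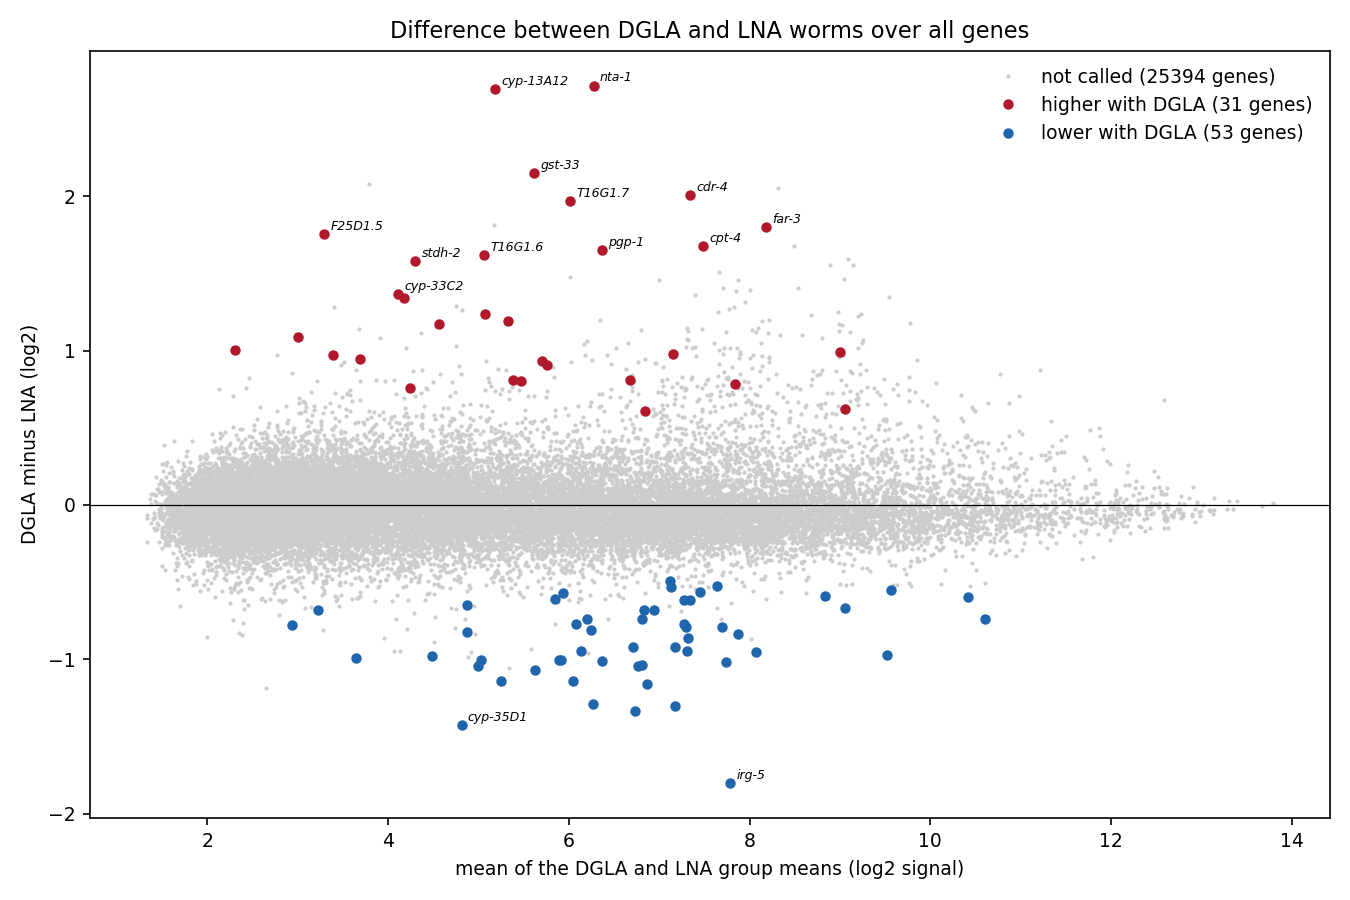
Difference of DGLA minus LNA (log2, vertical axis) against the mean log2 signal over the 6 arrays (horizontal axis), with a point for each of 25478 genes. The 31 called genes that were higher in DGLA are red, the 53 that were lower are blue and all others grey; the highest called points are nta-1 and cyp-13A12, and the lowest is irg-5.

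The largest increase among the called genes was in nta-1. This gene had 7.98, 7.37 and 7.55 in DGLA worms, against 4.81, 4.91 and 5.03 in LNA worms, a difference of 2.72 (SE 0.14, 6.58-fold, adjusted p = 3.64e-06). Every DGLA array was more than 2 log2 units above every LNA array for this gene. A cytochrome P450, cyp-13A12, of a family of oxidases that act on fatty acids and foreign compounds, had 6.72, 6.55 and 6.32 in DGLA, against 3.85, 3.58 and 4.07 in LNA (difference 2.69, SE 0.14, adjusted p = 3.64e-06). The GLA arrays were higher still for cyp-13A12, at 7.96, 7.82 and 7.81, while the control arrays, at 3.90, 4.13 and 4.23, lay near LNA. The glutathione S-transferase gst-33, of enzymes that attach glutathione to reactive molecules, had 7.10, 6.35 and 6.62 in DGLA and 4.60, 4.35 and 4.68 in LNA, with no overlap (4.43-fold, adjusted p = 0.000514). A second member, gst-5, had 5.08, 4.72 and 4.75 in DGLA against 3.33, 3.71 and 3.48 in LNA (2.54-fold, adjusted p = 0.000584). All GLA arrays held the same value for gst-5, 4.07 (SD 0), which enters the spread behind this p. With the 6 DGLA and LNA arrays alone limma gave gst-5 an adjusted p of 0.0436.

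The smallest adjusted p belonged to cdr-4, a member of the cadmium-responsive gene family of glutathione S-transferase-like proteins. It had 8.41, 8.31 and 8.31 in DGLA, against 6.23, 6.45 and 6.33 in LNA (difference 2.01, SE 0.09, 4.03-fold, adjusted p = 1.35e-06). The 3 DGLA arrays lay close together and stood clear of the GLA arrays (7.02, 7.07 and 6.92), which in turn stood clear of LNA and control. The ABC transporter gene pgp-1, a P-glycoprotein that exports lipophilic compounds from intestinal cells, had 7.18, 7.32 and 7.08 in DGLA and 5.92, 5.18 and 5.53 in LNA (3.14-fold, adjusted p = 0.000616). Another P450, cyp-33C2, had 5.01, 4.51 and 4.86 in DGLA against 3.50, 3.16 and 3.61 in LNA (2.58-fold, adjusted p = 0.00205). Its GLA arrays, at 3.60, 3.44 and 3.64, did not stand apart from LNA, and DGLA exceeded GLA by 1.23 (SE 0.15, adjusted p = 0.0127). Without LNA 2 and LNA 3 the adjusted p of cyp-33C2 was 0.0743.

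Further increases concerned genes with less defined roles. The neighbouring genes T16G1.6 and T16G1.7 both rose, T16G1.6 with 5.99, 5.74 and 5.89 in DGLA against 4.40, 4.25 and 4.11 in LNA (3.07-fold, adjusted p = 2.16e-05). T16G1.7 was more variable, at 7.56, 6.65 and 6.78 in DGLA and 4.61, 5.504 and 4.97 in LNA (3.91-fold, adjusted p = 0.00771). F25D1.5 had 4.32, 3.99 and 4.19 in DGLA, and 2.32, 2.41 and 2.51 in LNA (difference 1.75, SE 0.12, adjusted p = 2.68e-05). Its LNA mean lay under the lower quartiles of the 12 arrays, so no fold is given. The C-type lectin gene clec-206 rose as well (5.48 to 6.01 in DGLA, 4.28 to 4.58 in LNA, 2.36-fold, adjusted p = 0.00148), although its adjusted p against LNA 1 alone was 0.0777. F09C6.12 had 5.96, 5.90 and 5.91 in DGLA and 4.56, 5.23 and 4.40 in LNA (2.28-fold, adjusted p = 0.0271), with control arrays at 5.65 to 6.17, on the DGLA level. The call of F09C6.12 ended without LNA 3 or any DGLA array (adjusted p 0.0921 to 0.109).

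**Figure D2:**
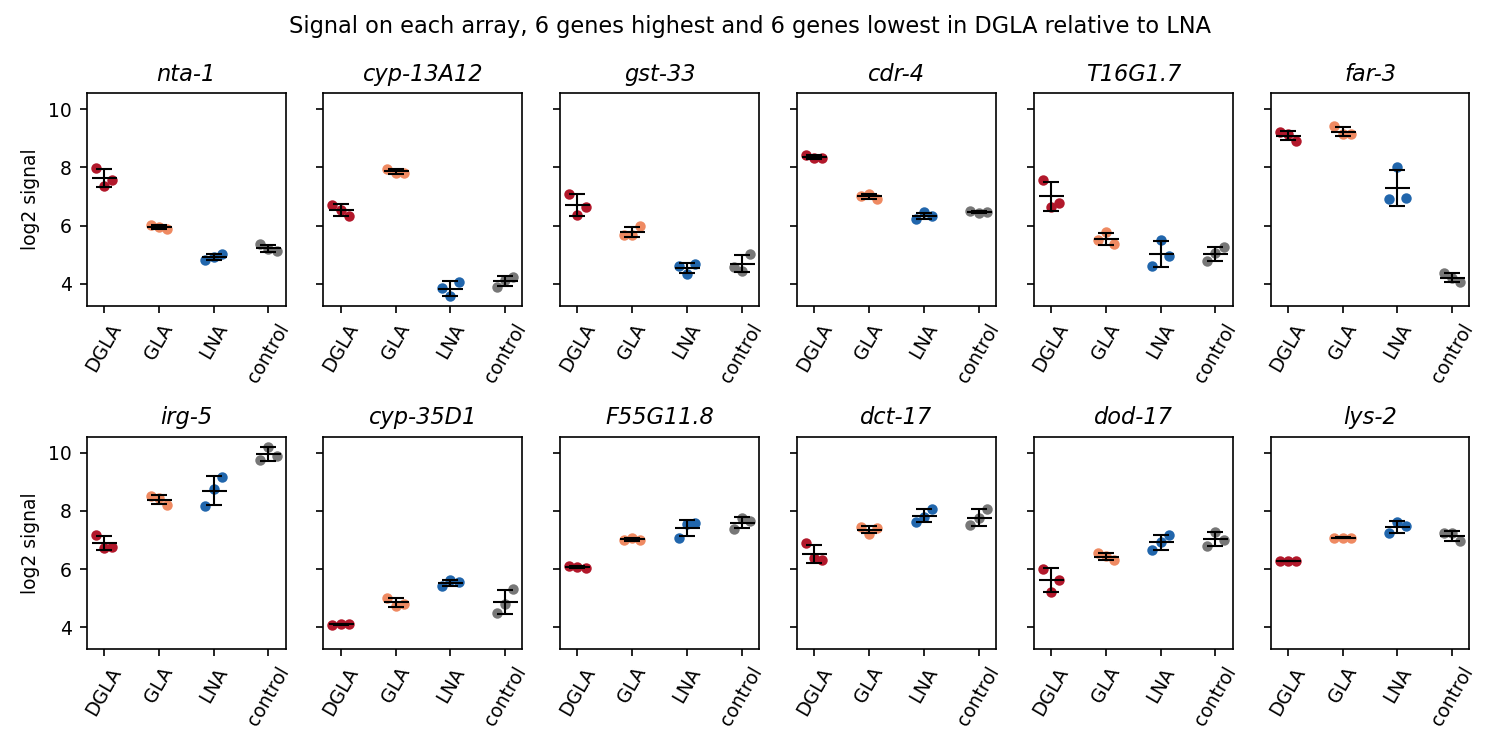
Log2 signal (vertical axes) of 12 called genes, the 6 most raised and the 6 most lowered in DGLA relative to LNA, by group (horizontal axes: DGLA, GLA, LNA, control). Dots are arrays and the bar is the group mean with its SD (n = 3); in each panel the DGLA dots clear the LNA dots, and cyp-13A12 and far-3 are the panels in which the GLA mean passes the DGLA mean.

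The cytochrome P450, glutathione S-transferase and UDP-glycosyltransferase families each held calls in both directions. Of 74 cytochrome P450 genes measured, 2 rose (cyp-13A12 and cyp-33C2) and 1 fell (4.05% called, against 0.33% of all genes). The family's median difference was -0.06, near that of all genes (-0.03). The lists were chosen with earlier results of these data known, so such shares are a description. The gene that fell, cyp-35D1, had 4.09, 4.11 and 4.10 in DGLA, against 5.41, 5.63 and 5.54 in LNA (difference -1.43, SE 0.17, 2.69-fold lower, adjusted p = 0.00307). Its GLA arrays (4.74 to 5.02) and control arrays (4.50 to 5.31) lay between. The adjusted p of cyp-35D1 against LNA 1 alone was 0.165, with a difference of -1.31.

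Of 48 glutathione S-transferase genes, 2 rose and 1 fell (6.25% called, against 0.33% of all genes), with a median of 0.00. The one that fell, gst-13, had 7.18, 6.59 and 6.72 in DGLA and 7.43, 7.94 and 7.96 in LNA (difference -0.94, SE 0.17, adjusted p = 0.0454). Its call ended without LNA 2, LNA 3, DGLA 2 or DGLA 3 (adjusted p 0.172 to 0.193). Of 67 UDP-glycosyltransferase genes, whose products attach sugars to small lipophilic molecules, 2 rose and 3 fell (7.46% called), with a median of -0.08.

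The largest decrease of the UDP-glycosyltransferases was that of ugt-65, at 5.12, 4.98 and 5.17 in DGLA against 6.09, 6.26 and 6.14 in LNA (2.10-fold lower, adjusted p = 0.00289, or 0.144 against LNA 1 alone). For ugt-37 the DGLA arrays (6.43, 6.05 and 6.16) were above LNA (5.01, 5.56 and 5.36; adjusted p = 0.0375) and below GLA, which stood at 8.20, 8.25 and 8.22. The DGLA mean of ugt-37 was thus 2.01 lower than the GLA mean (SE 0.16) and 0.90 higher than the LNA mean. The calls of ugt-37, of ugt-26 (difference -0.74) and of ugt-44 (difference -0.77) ended with the loss of single arrays: LNA 3 or any DGLA array for ugt-37 (adjusted p 0.0818 to 0.124), LNA 2, LNA 3, DGLA 1 or DGLA 2 for ugt-26 (0.0513 to 0.0818), and LNA 2, LNA 3 or any DGLA array for ugt-44 (0.0505 to 0.0842).

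Among 35 short-chain dehydrogenase genes 2 rose and 0 fell (5.71% called, against 0.33% of all genes). The steroid dehydrogenase family gene stdh-2 had 5.45, 4.45 and 5.38 in DGLA, against 3.68, 3.39 and 3.47 in LNA (2.99-fold, adjusted p = 0.0130). GLA arrays (3.15 to 3.68) and control arrays (3.40 to 3.54) stayed at the LNA level for stdh-2, and the call ended without LNA 2, LNA 3 or DGLA 3 (adjusted p 0.0673 to 0.0798). The other, dhs-23, was dim, with 3.19, 2.61 and 2.63 in DGLA and 1.81, 1.69 and 1.93 in LNA (adjusted p = 0.0128, or 0.0651 without LNA 2). A carboxylesterase, cest-12, was the single call among 35 such genes, at 5.84 to 6.38 in DGLA and up to 5.29 in LNA (1.91-fold, adjusted p = 0.0118). The call of cest-12 ended without LNA 2, LNA 3, DGLA 1 or DGLA 2 (adjusted p 0.05002 to 0.0618). Against LNA 1 alone the adjusted p was 0.264 for stdh-2, 0.215 for dhs-23 and 0.241 for cest-12.

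Genes that bind, move and desaturate fatty acids gave few calls, among them large ones. The fatty acid and retinol binding protein gene far-3 had 9.21, 9.13 and 8.91 in DGLA, 9.40, 9.13 and 9.14 in GLA, 6.90, 8.002 and 6.95 in LNA, and 4.35, 4.20 and 4.05 in control worms. DGLA exceeded LNA by 1.80 (SE 0.24, 3.49-fold, adjusted p = 0.00785), while DGLA and GLA differed by -0.14 (95% interval -0.66 to 0.39), which was within the spread of the arrays. LNA itself exceeded control by 3.08, so all acids were above the vehicle for far-3. It was the single call among 17 fatty acid binding protein genes, whose median difference was -0.09, and only 1 of the 17 differences was above 0. The call of far-3 ended narrowly without DGLA 2 (adjusted p = 0.0504), and against LNA 1 alone the difference was 2.18 (adjusted p = 0.00220).

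Carnitine palmitoyltransferases, which attach fatty acids to carnitine for entry into mitochondria, held 1 of the largest increases and 1 of the decreases. The gene cpt-4 had 8.28, 8.39 and 8.31 in DGLA, against 6.62, 6.72 and 6.59 in LNA (difference 1.68, SE 0.09, 3.20-fold, adjusted p = 3.64e-06). GLA arrays stood at 6.88 to 7.12 and control arrays at 7.69 to 7.70, so that for cpt-4 the vehicle lay between DGLA and the other acids. LNA was below control by 1.05 (SE 0.09) and DGLA above it by 0.63. The gene cpt-3 went the other way, with 4.57, 4.89 and 4.59 in DGLA and 5.72, 6.24 and 5.51 in LNA (difference -1.14, SE 0.19, 2.20-fold lower, adjusted p = 0.0351). Its control arrays, at 4.51, 4.06 and 4.43, were close to DGLA, and LNA exceeded control by 1.49 for cpt-3. The call of cpt-3 ended without LNA 2 or any DGLA array (adjusted p 0.0772 to 0.154) and was 0.231 against LNA 1 alone, whereas that of cpt-4 held in each of these.

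Of 34 mitochondrial beta-oxidation genes measured, cpt-4 rose and cpt-3 fell (5.88% called, against 0.33% of all genes). The median difference of this list was 0.02. Peroxisomal beta-oxidation shortens long and polyunsaturated chains and, in worms, the side chains of ascaroside pheromones. Of its 17 measured genes 1 rose and 2 fell (17.6% called). Yet 12 of the 17 differences were above 0 and the median was 0.40, against -0.03 over all genes. The dienoyl-CoA reductase gene decr-1.1, whose enzyme class is needed to oxidise polyunsaturated chains, had 9.53, 9.25 and 9.33 in DGLA and 8.61, 8.97 and 8.67 in LNA (1.54-fold, adjusted p = 0.0446). The acyl-CoA oxidase genes acox-1.5 and acox-1.3 fell, acox-1.5 with 7.001, 7.17 and 6.93 in DGLA against 7.55, 7.65 and 7.76 in LNA (difference -0.62, adjusted p = 0.0274). acox-1.3 had 5.70, 5.56 and 5.70 in DGLA and 6.20, 6.31 and 6.16 in LNA (difference -0.57, adjusted p = 0.0454).

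The 4 enzymes that act in sequence in the ascaroside pathway did not pass the main test. Their differences were 0.49 for acox-1.1 (95% interval 0.27 to 0.70, adjusted p = 0.0809), 0.66 for maoc-1 (0.38 to 0.95, adjusted p = 0.0687), 0.40 for dhs-28 (0.20 to 0.60, adjusted p = 0.147) and 0.59 for the thiolase gene daf-22 (0.33 to 0.85, adjusted p = 0.0796). In each of the 4 the DGLA arrays lay above the LNA arrays, which was also so for 4.43% of all genes. All 4 passed limma's test after cyclic loess normalisation (adjusted p 0.0190 to 0.0394) and with a trend over gene length removed (0.0166 to 0.0419). They also passed with a variance trend and robust estimation (0.0228 to 0.0246). None of the 4 passed with a replicate block (0.140 to 0.243) or with the 6 DGLA and LNA arrays alone (0.364 to 0.604). The peroxisomal count, too, depended on single arrays and on normalisation. The call ended without LNA 3 or any DGLA array for decr-1.1 (adjusted p 0.0820 to 0.179), without LNA 2, LNA 3, DGLA 1 or DGLA 3 for acox-1.5 (0.0921 to 0.128), and without LNA 2, LNA 3 or any DGLA array for acox-1.3 (0.0965 to 0.193). Against LNA 1 alone the list had 0 calls and a median of 0.50, and after cyclic loess normalisation 8 of the 17 were higher and 2 lower.

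The enzymes of the pathway that links LNA to DGLA showed no called difference. fat-3, which makes GLA from LNA, had 8.94, 8.74 and 9.08 in DGLA and 8.30, 8.62 and 8.55 in LNA, a difference of 0.43 (95% interval 0.18 to 0.68, adjusted p = 0.224). elo-1 differed by -0.11 (-0.29 to 0.08), elo-2 by 0.34 (0.13 to 0.55, adjusted p = 0.265) and fat-4 by -0.10 (-0.30 to 0.10). For elo-1 and fat-4 the arrays of the groups overlapped. For fat-3 and elo-2 the DGLA arrays lay above the LNA arrays, which was also so for 4.43% of all genes.

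Of the 19 desaturase and elongase genes, whose median difference was 0.01, fat-7 alone passed the test. It encodes a stearoyl-CoA desaturase that puts the first double bond into saturated chains. It had 9.64, 9.39 and 9.45 in DGLA, 9.30, 9.25 and 9.18 in GLA, 8.10, 8.63 and 8.78 in LNA, and 8.497, 8.88 and 8.68 in control worms. The DGLA level was 1.98-fold that of LNA (difference 0.99, SE 0.16, adjusted p = 0.0274), and LNA 1 was the lowest of the 12 arrays. The call of fat-7 ended without LNA 2 or any DGLA array (adjusted p 0.0680 to 0.105) and held against LNA 1 alone, with a difference of 1.39 (adjusted p = 0.0205).

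The related desaturase genes did not pass. fat-6 had a difference of 0.25 (95% interval 0.05 to 0.45), and fat-5, of the same enzyme class, one of -0.61 (-0.91 to -0.32, adjusted p = 0.124). For fat-5 the DGLA arrays (5.70, 5.74 and 5.64) were all below the LNA arrays (6.12, 6.43 and 6.38), as in 8.23% of all genes. Both groups were above control for fat-5 (4.14, 4.22 and 4.64). Differences for fat-1 (0.14), fat-2 (0.16), elo-5 (-0.11) and elo-6 (-0.07) were small beside intervals that reached from -0.07 to 0.35, -0.02 to 0.35, -0.32 to 0.10 and -0.46 to 0.32, in that order.

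Of all lists examined, the CUB-like and infection response genes had the most lower calls. Of 25 measured members, which encode mostly secreted proteins induced by pathogens, 8 fell and 0 rose (32% called, against 0.33% of all genes), with a median difference of -0.46. The DGLA arrays lay entirely below the LNA arrays in 14 of the 25 and above them in 1, against 8.23% and 4.43% of all genes. The list was drawn up with earlier results of these data known, so its direction is no independent evidence.

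The largest decrease was in irg-5, an infection response gene with a CUB-like domain. It had 7.16, 6.72 and 6.76 in DGLA, 8.49, 8.43 and 8.21 in GLA, 8.16, 8.73 and 9.16 in LNA, and 9.73, 10.20 and 9.89 in control worms. DGLA was 3.49-fold below LNA for irg-5 (difference -1.80, SE 0.22, adjusted p = 0.00466) and differed from GLA by -1.496 (adjusted p = 0.0403). Its LNA arrays spread widely, and against LNA 1 alone the difference was -1.28 (adjusted p = 0.122). F55G11.8 had 6.10, 6.06 and 6.03 in DGLA, against 7.08, 7.55 and 7.57 in LNA (2.52-fold lower, adjusted p = 0.000955). C17H12.8, the brightest of the called CUB-like genes, had 9.17, 8.90 and 9.03 in DGLA against 9.98, 9.95 and 10.09 in LNA (1.96-fold lower, adjusted p = 0.000584). Both calls held against LNA 1 alone, with adjusted p of 0.0480 for F55G11.8 and 0.0452 for C17H12.8.

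The other members that fell were dod-17 (difference -1.29), K08D8.5 (-1.14), mbug-1 (-1.04), dod-22 (-0.99) and, named after its value was seen, ZK896.5 (-0.81). For mbug-1 the DGLA arrays (4.73, 4.25 and 4.43) and the GLA arrays (4.10, 4.03 and 4.12) were both below LNA (5.63, 5.496 and 5.41) and control (5.83, 6.16 and 6.37). dod-22 was at 3.31, 2.96 and 3.17 in DGLA against 4.24, 3.95 and 4.23 in LNA (adjusted p = 0.00513). Calls ended without LNA 3 or DGLA 2 for K08D8.5 (adjusted p 0.0543 to 0.0573), without LNA 2, DGLA 2 or DGLA 3 for mbug-1 (0.0553 to 0.0756), without LNA 3, DGLA 2 or DGLA 3 for ZK896.5 (0.0622 to 0.0842), and without LNA 2, LNA 3, DGLA 2 or DGLA 3 for dod-17 (0.0665 to 0.0887).

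Infection response genes did not all follow. irg-3 had 9.68, 9.51 and 9.44 in DGLA and 8.46, 9.16 and 8.86 in LNA, a difference of 0.72 that did not pass (95% interval 0.37 to 1.06, adjusted p = 0.122), and both groups were above control (6.84, 6.87 and 6.54). irg-4 had 7.79, 7.45 and 7.53 in DGLA and 7.60, 7.52 and 7.73 in LNA, with overlapping arrays (difference -0.03, interval -0.31 to 0.26). The list as a whole stayed mostly lower when arrays were left out: leaving out 1 array at a time left 4 to 11 lower calls and 0 to 2 higher ones, with medians of -0.57 to -0.34. Against LNA 1 alone 2 were lower and 0 higher, with a median of -0.32.

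C-type lectins are a large family of sugar-binding proteins, many of them secreted into the gut lumen. Of 247 measured, 7 fell and 1 rose (3.24% called, against 0.33% of all genes), and the median was -0.05. clec-85 had 7.29, 7.16 and 7.23 in DGLA, against 8.23, 8.33 and 8.18 in LNA (2.03-fold lower, adjusted p = 0.000652, and 0.0452 against LNA 1 alone). clec-247 had 5.34, 5.45 and 5.45 in DGLA, 5.15, 5.27 and 5.13 in GLA, 6.18, 6.51 and 6.58 in LNA, and 6.81 to 6.86 in control worms (DGLA 2.01-fold below LNA, adjusted p = 0.00148). clec-67 fell by 0.86 on the log2 scale (adjusted p = 0.00148). Against LNA 1 alone the adjusted p was 0.0537 for clec-247 and 0.0519 for clec-67, and the family then had 1 lower and 0 higher calls. The number of lectins lower in DGLA was 3 to 16 when single arrays were left out.

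Lysozymes, which cut bacterial cell walls, had 1 call among 16 genes. lys-2 was almost constant in DGLA, at 6.29, 6.28 and 6.29, against 7.23, 7.63 and 7.46 in LNA, 7.05 to 7.08 in GLA and 6.95 to 7.24 in control worms (DGLA 2.23-fold below LNA, adjusted p = 0.000695). DGLA arrays were thus the lowest of all 12 for lys-2, and its call held against LNA 1 alone (adjusted p = 0.0452). None of 85 saposin-like and other gut defence genes and none of 22 epidermal antimicrobial peptide genes was called. Of these, 16 and 5 were under an unadjusted p of 0.05 in limma, against 2857 of all 25478 genes.

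**Figure D3:**
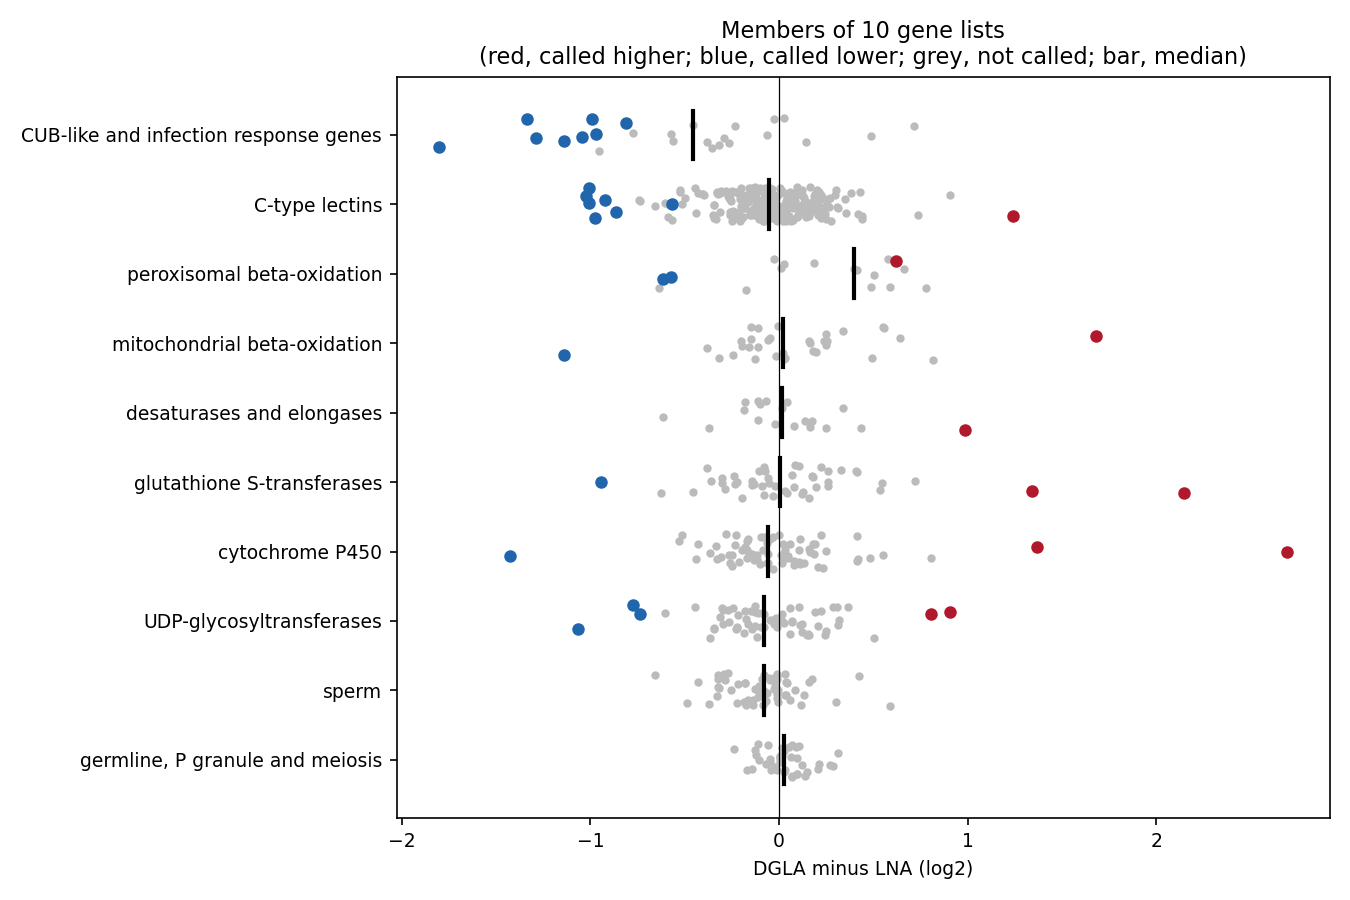
Difference of DGLA minus LNA (log2) for each measured gene of 10 lists, with a point per gene, called genes coloured and a bar at each list's median. The CUB-like and infection response genes have their median at -0.46 and the peroxisomal beta-oxidation genes at 0.40; the other medians lie near 0.

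Further genes that fell included dct-17, dod-19 and cpr-3. dct-17, known as a target of the insulin pathway's transcription factor DAF-16, had 6.88, 6.37 and 6.32 in DGLA and 7.63, 7.78 and 8.07 in LNA (2.47-fold lower, adjusted p = 0.0110). The call of dct-17 ended without LNA 3, DGLA 2 or DGLA 3 (adjusted p 0.0573 to 0.0660). Of 24 measured genes listed as downstream of DAF-16, fat-7 rose and dod-19 fell (10.30, 10.20 and 10.19 in DGLA against 10.77, 11.07 and 11.07 in LNA, adjusted p = 0.00714), and the median was -0.07. The called members were 8.33% of this list, against 0.33% of all genes. This list did not hold dct-17, nor dod-17 and dod-22, which were counted with the CUB-like genes, and each of these fell. The cathepsin B-like protease gene cpr-3 had 6.18, 5.80 and 5.62 in DGLA and 6.79, 6.95 and 6.89 in LNA (2.01-fold lower, adjusted p = 0.0325). Its call ended without LNA 2, LNA 3, DGLA 2 or DGLA 3 (adjusted p 0.121 to 0.146). Against LNA 1 alone the adjusted p was 0.248 for dct-17, 0.177 for dod-19 and 0.330 for cpr-3.

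Genes of sulphur amino acid metabolism were also among the decreases. This grouping was made after the values were seen and holds no list. cysl-2, a member of the cysteine synthase family that acts on cyanide and sulphide, had 6.31, 6.22 and 6.21 in DGLA, against 7.10, 7.41 and 7.37 in LNA (2.06-fold lower, adjusted p = 0.000584). GLA arrays (6.87 to 6.95) and control arrays (6.82 to 6.98) coincided for cysl-2, so DGLA lay below both and LNA above both. cth-1, which encodes cystathionine gamma-lyase and releases cysteine from cystathionine, had 6.39, 6.39 and 6.09 in DGLA and 7.17, 7.33 and 7.50 in LNA (2.06-fold lower, adjusted p = 0.00466). rips-1, named after its value was seen and known from the worm's response to sulphide, had 6.76, 6.81 and 6.59 in DGLA and 7.58, 7.69 and 7.64 in LNA (1.89-fold lower, adjusted p = 0.00131). Against LNA 1 alone cysl-2 held its call (adjusted p = 0.0452), and cth-1 (0.177) and rips-1 (0.0875) did not.

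Beyond the genes chosen by the naming rule, 11 called genes rose, by 0.61 to 1.17 on the log2 scale, and 29 fell, with differences of -1.01 to -0.49. Some of them have known roles in lipid or small-molecule metabolism and are named here after their values were seen. nape-1, whose enzyme releases N-acylethanolamine signalling lipids from membrane phospholipids, had 4.63, 4.62 and 4.62 in DGLA and 4.01, 3.65 and 3.94 in LNA (1.69-fold, adjusted p = 0.0225). The membrane-bound O-acyltransferase gene mboa-3 had 7.12, 7.18 and 7.15 in DGLA against 6.51, 6.65 and 6.47 in LNA (1.52-fold, adjusted p = 0.0274). The folate transporter gene folt-2 had 10.05, 10.20 and 10.10 in DGLA and 10.70, 10.71 and 10.74 in LNA (1.51-fold lower, adjusted p = 0.0144). In each of these 3 the groups stood apart by less than 1 log2 unit. Calls ended without LNA 2, LNA 3 or any DGLA array for nape-1 (adjusted p 0.0693 to 0.0995) and mboa-3 (0.0534 to 0.128), and without LNA 2, LNA 3, DGLA 1 or DGLA 3 for folt-2 (0.0553 to 0.0847). With LNA 1 as the only LNA array the adjusted p was 0.261 for nape-1, 0.230 for mboa-3 and 0.231 for folt-2.

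Genes of the germ line, which dietary DGLA is known to affect, gave no call. None of 41 germline, P granule and meiosis genes passed limma's test, and 1 had an unadjusted p under 0.05 (median difference 0.03). This median turned in sign against LNA 1 alone, to -0.07. The 12 germline markers had a summed log2 level of 12.92 on LNA 1, 12.57 on LNA 2 and 12.696 on LNA 3. All DGLA arrays lay below LNA 1 and above LNA 2 and LNA 3, so the direction of the germline difference depended on the LNA arrays used. Among 63 sperm genes 0 passed and 7 had an unadjusted p under 0.05 in limma (median -0.08), where 2857 of all 25478 genes did. DGLA lay entirely below LNA in 10 of the 63, against 8.23% of all genes. Of 26 oocyte and eggshell genes 0 passed and 2 were under an unadjusted p of 0.05 (median -0.06). Apoptosis and engulfment genes (23 measured) had 0 calls and 4 under an unadjusted p of 0.05, and antioxidant enzyme genes (31 measured) 0 and 6. Vitellogenin genes, which encode yolk proteins made in the adult intestine, had a median of 0.41 over 5 genes, of which none was called and 1 had an unadjusted p under 0.05. The vitellogenin median ranged from 0.15 to 0.73 when single arrays were left out and was 0.10 against LNA 1 alone. Ribosomal protein genes (62) had a median of -0.09, 0 calls and 5 under an unadjusted p of 0.05.

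The means of the GLA and control arrays were set beside those of DGLA and LNA. In 76 of the 84 called genes (90.5%) the GLA mean lay between the DGLA and LNA means, as it did in 66.8% of the 3227 genes whose DGLA and LNA arrays did not overlap. The calls chose genes with a wide gap between DGLA and LNA, so this share is a description. GLA passed DGLA in 5 (cyp-13A12, ugt-37, far-3, mbug-1 and clec-247) and lay beyond LNA in 3 (stdh-2, clec-174 and F09C8.1, the last 2 named after their values were seen). Control means lay between DGLA and LNA in 54 of the 84 called genes, beyond LNA in 28 and beyond DGLA in 2. Among the 3227 genes that did not overlap, they lay between in 2171, beyond LNA in 482 and beyond DGLA in 574. Over all 25478 genes the control mean lay between in 9926 and the GLA mean in 36.5%. The 2 steps, which share the GLA arrays and also the arrays compared here, had 17 called genes for DGLA against GLA (0.0667%) and 16 for GLA against LNA (0.0628%).

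Single genes divided the distance differently. For cdr-4, DGLA exceeded GLA by 1.34 and GLA exceeded LNA by 0.67, and for nta-1 these differences were 1.69 and 1.03. For cpt-4 they were 1.33 and 0.35, and the smaller one did not pass (adjusted p = 0.331). pgp-1 had the opposite split, with 0.47 for DGLA over GLA (adjusted p = 0.862) and 1.18 for GLA over LNA (adjusted p = 0.0244). C17H12.8 divided into -0.32 (adjusted p = 0.682) and -0.65 (adjusted p = 0.0348). Whether the steps differ from each other in any of these genes was not tested.

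**Figure D4:**
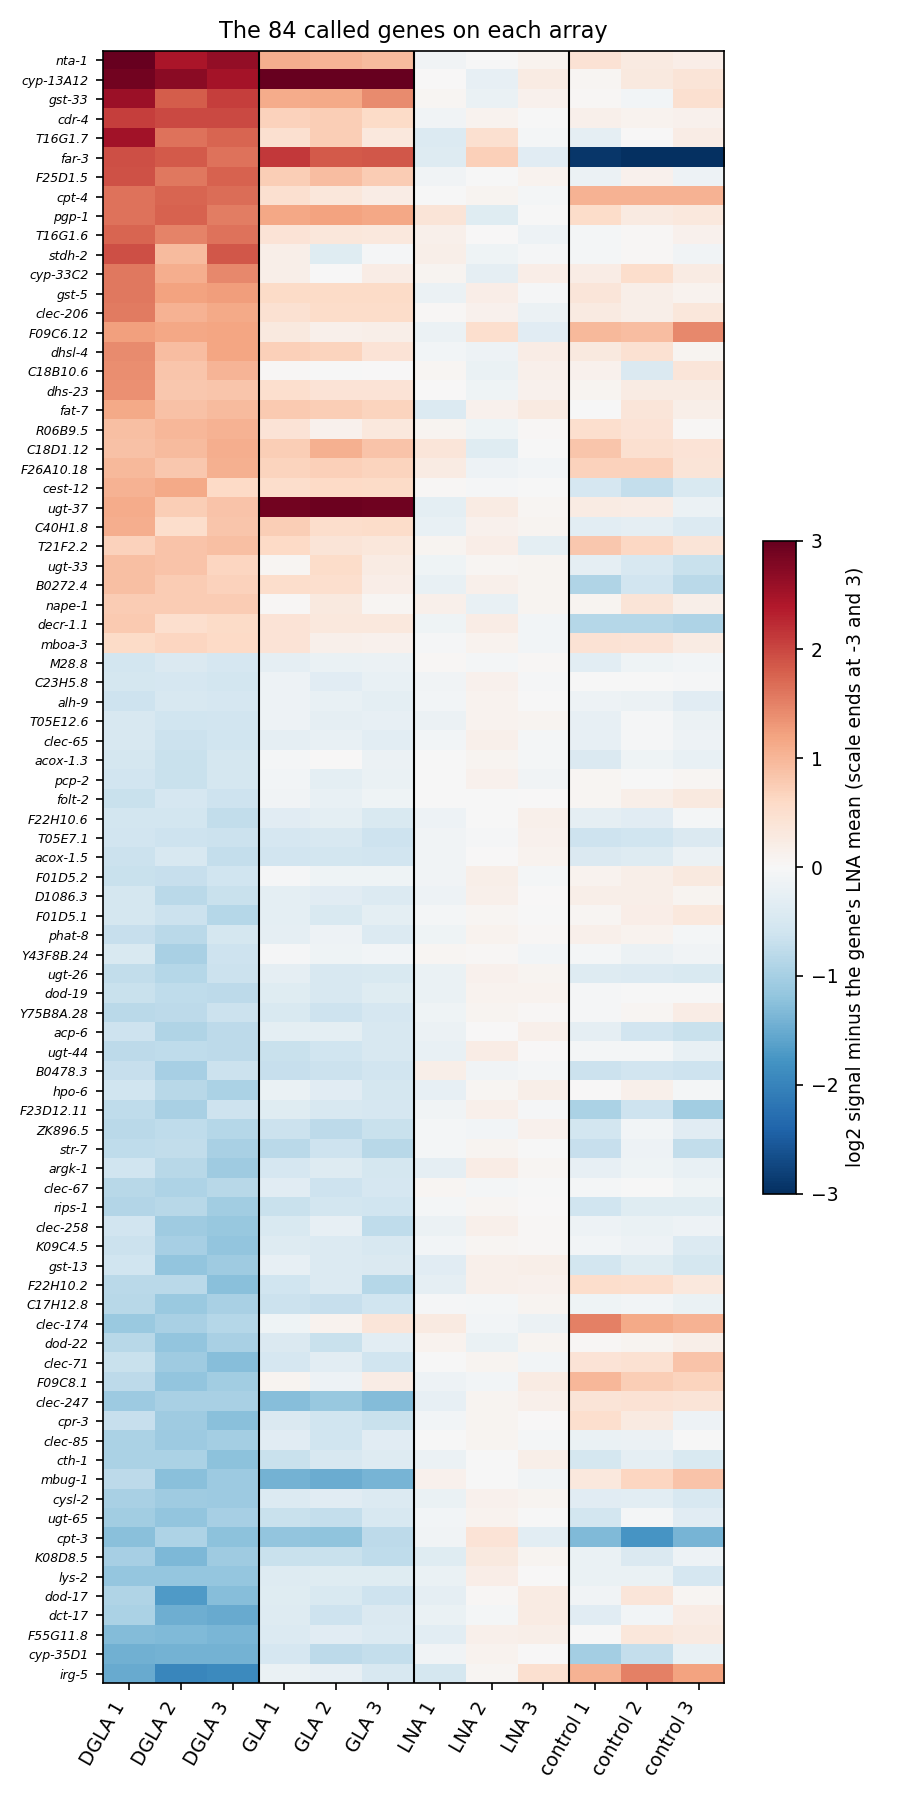
Log2 signal minus the mean of the LNA arrays for the 84 called genes (rows) on the 12 arrays (columns, ordered DGLA, GLA, LNA, control); red is above and blue below the LNA mean, with colours capped at 3 either way. The GLA columns carry paler versions of the DGLA colours in most rows, with the GLA mean between DGLA and LNA in 76 of 84.

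Called genes were in part neighbours. Of 81 called genes that could be placed in the order of protein-coding genes (assembly WBcel235, used for gene order alone), 20 lay within 3 genes of another. They formed 8 runs, and in all 8 runs the members moved the same way. How often uncalled genes form such runs was not counted, and 53 of the 84 called genes fell, so these counts are a description. The longest run held F55G11.8, dod-22, mbug-1 and dod-17, all CUB-like or infection response genes that fell. Runs of lower genes also joined dct-17 with irg-5, clec-67 with clec-71 and clec-174, str-7 with cth-1 and argk-1, F01D5.1 with F01D5.2, and F22H10.2 with F22H10.6. Runs of higher genes joined ugt-37 with fat-7 and T16G1.6 with T16G1.7. Probe sequences were not used here, so signal shared between similar gene copies within such runs, or within the P450 and lectin families, cannot be told apart from change in each copy.

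Setting LNA 2 and LNA 3 aside left all 84 differences in their direction. This was fixed beforehand, because in all 84 genes the DGLA arrays lay on one side of every LNA array, LNA 1 included. Of these genes 18 stayed called, 13 of the 31 higher and 5 of the 53 lower in DGLA, in a test with a single LNA array. The size of the difference against LNA 1 was a median 1.01 times that against all LNA arrays in the higher genes and 0.842 times in the lower genes. Calls held in every setting that left out 1 array for 29 of the 84 genes, and 15 of those also held against LNA 1 alone. The 15 were cdr-4, nta-1, cyp-13A12, cpt-4, T16G1.6, T16G1.7, F25D1.5, gst-33, gst-5 and pgp-1 among the higher genes, and cysl-2, C17H12.8, clec-85, lys-2 and F55G11.8 among the lower ones.

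**Figure D5:**
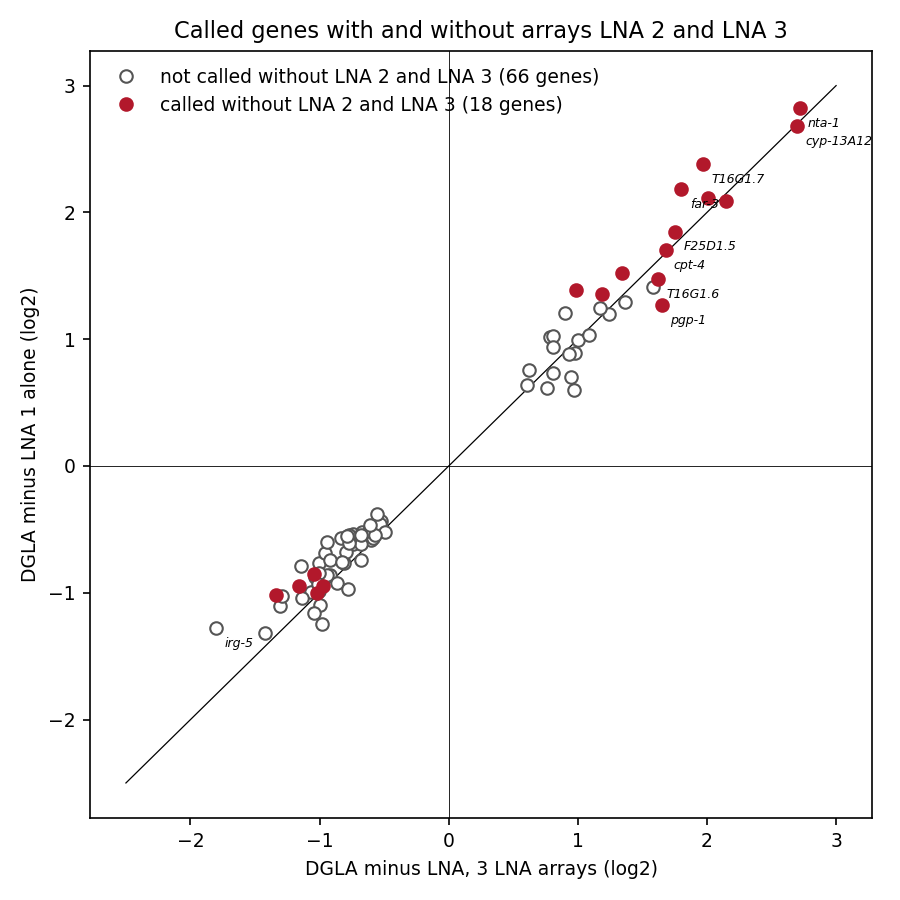
Difference of DGLA minus LNA (log2) of the 84 called genes with all 3 LNA arrays (horizontal axis) and with LNA 1 as the only LNA array (vertical axis); filled points, 18 in number, stayed called and open points, 66, did not. All points lie near the diagonal and keep their sign, which was fixed beforehand because the DGLA and LNA arrays of these genes did not overlap.

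A second set of large differences was not called and came with the same 2 arrays. In all, 92 genes were at least 2-fold higher in DGLA than in LNA by their means, and 74 of these did not pass the test. In 71 of the 74, LNA 2 and LNA 3 were both below the other 10 arrays, and 2 of the 74 remained at least 2-fold higher against LNA 1 alone, compared with 17 of the 18 that were called. The genes of this set, named here after their values were seen, include dig-1, with 8.88, 9.64 and 9.53 in DGLA against 9.53, 6.30 and 6.05 in LNA (adjusted p = 0.324). The muscle gene unc-22, which encodes twitchin, had 9.25, 9.99 and 9.76 in DGLA and 9.81, 7.34 and 7.20 in LNA (adjusted p = 0.324). For both, LNA 1 was level with DGLA. The median genomic span of the 74 genes was 13930 bases, against 1370 for the 18 called genes and 1537 for all genes. Of 19 genes at least 2-fold lower in DGLA, 17 were called, and 7 of those 17 stayed at least 2-fold lower against LNA 1 alone.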

How the data were processed

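Total RNA of 12 whole-worm L4 samples was measured on 1 array each. The deposited values are log2 signals per probe set that the authors made with RMA (background correction, normalisation between arrays and summary of probes), per the submitters' processing notes, which name RMA, the Transcriptome Analysis Console and the Affymetrix Expression Console; for options and genome build, nothing is given in the sources used here. Precision is limited by the number of arrays. Of 29317 probe sets, 25546 carried 1 gene symbol, 646 several and 3125 none; 25495 of the first matched the reference gene table (assembly WBcel235), and 0 symbols changed. All probe sets stayed in the fit, since array control probe sets could not be recognised.

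Means of the 4 groups were fitted with limma 3.58.1 (lmFit and eBayes) in R 4.3.3, and DGLA minus LNA was tested two-sided with Benjamini-Hochberg adjustment over all probe sets at 0.05, with no fold limit and no filter on dim probe sets. DGLA against LNA was the comparison of interest. The same fit gave the other contrasts between acids and with control that are cited. Each was adjusted on its own, with no adjustment across contrasts. Intervals are at 95%. The method was tested on simulated data. No block was used, as no label pairs the arrays. Same-numbered DGLA and LNA arrays had correlations of deviations from their group means of -0.115, -0.133 and -0.00744. These values cover DGLA and LNA alone, and pairing over the 4 groups was not tested.

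Named genes were the 15 highest and 15 lowest called differences with groups that did not overlap, up to 4 called members per list with the smallest adjusted p, and a fixed set (fat-1 to fat-7, elo-1, elo-2, elo-5, elo-6, far-3, irg-3, irg-4, irg-5, acox-1.1, maoc-1, dhs-28 and daf-22). The members, the 40 gene lists and the 12 marker lists were chosen with earlier results of these data known. Lists are described by counts and medians. The lists without a call that are not given elsewhere had medians between -0.10 (insulin-like peptides) and 0.14 (fatty acid and branched-chain synthesis). Alternatives covered the arrays fitted, the replicate block, normalisation, gene length, the filter on dim probe sets, the variance model, a 2-fold limit and the loss of each array; setting LNA 2 and LNA 3 aside was added after the data were seen. No nucleotide or protein sequences were used.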

Additional observations from a re-analysis of the deposited data

How the results depend on the processing

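The main test called 93 probe sets; 0.119% of those tested were higher and 0.198% lower in DGLA. With the 6 DGLA and LNA arrays alone it called 22 (0.0375% higher, 0.0375% lower), among probe sets above the median signal 153 (0.287%, 0.757%), with a variance trend and robust estimation 175 (0.191%, 0.406%), with array weights 209 (0.355%, 0.358%) and with a 2-fold limit 40 (0.0716%, 0.0648%), the share higher being given before the share lower. Cyclic loess gave 103, split 50 higher and 53 lower, and removing a trend with gene length gave 103, split 47 higher (0.184%) and 56 lower; median centring gave 88, split 30 and 58. Leaving out 1 array gave 39 to 1359 calls, with 0.0682% to 3.25% higher and 0.0614% to 1.39% lower: 1359 without LNA 1, 47 without LNA 2, 45 without LNA 3, 39 without DGLA 2 and 41 without DGLA 3, each over 1.5 times away from 93. Without LNA 2 and LNA 3 it called 31 (0.058% higher, 0.0478% lower), of which 21 were among the 93. With the replicate number as a block it called 56 (24 higher, 32 or 0.109% lower), of which 54 were among the 93. No label links arrays of the same number. All 3 same-number correlations between DGLA and LNA were below 0. Pairing over the 4 groups was not tested, so whether the arrays are paired stays unknown. The causes were not tested. Of the 84 called genes, 79 stayed called after cyclic loess, 82 with the length trend removed and 19 with the 6 DGLA and LNA arrays alone. Those not called by limma with these 6 arrays include irg-5 (adjusted p = 0.112), T16G1.7 (0.137), far-3 (0.167) and stdh-2 (0.174). Differences near 0 turned in sign: fat-4 to 0.033 without LNA 2 and LNA 3; elo-6 to 0.092 without LNA 2 and LNA 3, with -0.15 to 0.069 when 1 array was left out (above 0 without LNA 3 or DGLA 3); irg-4 to 0.038 with cyclic loess and 0.024 with the length trend removed, with -0.12 to 0.045 when 1 array was left out (above 0 without LNA 3, DGLA 2 or DGLA 3). Dim genes such as F25D1.5 and dhs-23 have a lower limit set by the array background.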
